A study of Mus musculus with 12 samples.

Results

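Interferon-stimulated genes are the transcripts that rise when interferon binds its receptor, and 40 of them are described here in T cells isolated from mouse spleen. They were taken by gene symbol from a table of raw read counts with 49315 genes, with earlier results of these data known, and all 40 were present, had counts in every library and were tested in every comparison. The study has 4 groups of 3 mice with 1 library per mouse. WT mice and miR-214-/- mice, which lack the microRNA miR-214 in every cell, received either vehicle (sham) or angiotensin II (Ang II), the peptide used to raise blood pressure, at 490 ng/kg per day from an osmotic pump for 14 days. All animals were males of 12 weeks. The T cells were enriched by magnetic removal of other cells, so they were not sorted by a T cell marker. The study's methods state backcrossing of the miR-214-/- line for its transfer experiments only, so the background of the mice sequenced is not given in the sources used here. Messenger RNA was sequenced as polyadenylated, stranded libraries, and the locus Mir214 had 0 counts in all 12 libraries, WT included, so the table cannot check the deletion.

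Type I interferons signal through IFNAR1 and IFNAR2 and the kinases JAK1 and TYK2 to a transcription factor complex that holds STAT2 and IRF9 and binds the interferon-stimulated response element (ISRE) in promoters. Interferon gamma, which T cells themselves secrete, signals through IFNGR1 and IFNGR2 and acts on promoters through the gamma-activated site (GAS). The genes induced include proteins that sense or degrade viral RNA, block its translation or packaging, present antigen, and shut the signal off again. T cells keep many of these genes on at a low level without infection.

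Total counts were 21126874 to 29605988 per library. All 12 T cell markers, CD3 chains and the co-receptors among them, were detected in every library. Levels are given as CPM, read counts scaled to the TMM-adjusted library size. The summed CPM of the T cell markers lay between 4873 and 5824 in WT sham and between 3204 and 4021 in WT Ang II. For miR-214-/- the sums were 4381 to 5198 (sham) and 3706 to 5155 (Ang II). In WT, 9 of these 12 markers passed the test as lower with Ang II, beside 7.06% of all genes. The median log2 fold change of the 12 was -0.53. In miR-214-/- 0 of 12 passed (median -0.03), beside 0% of all genes. Some markers of other cells moved too. In WT, 10 of 10 neutrophil and 7 of 12 red-cell precursor markers passed as higher with Ang II, beside 11.7% of all genes. Fewer passed for megakaryocytes and platelets (3 of 7), macrophages and monocytes (2 of 12), conventional dendritic cells (2 of 8) and plasma cells (1 of 6). For B cells (8 tested) and NK cells (4 tested) 0 passed, and 1 of 8 plasmacytoid dendritic cell markers fell. The cell cycle genes, which are not markers of a cell type, passed as higher in 16 of 16. A pair of libraries stood apart. WT Ang II replicate 1 had summed levels of 5853 CPM for red-cell precursors, 3346 CPM for neutrophils and 3059 CPM for macrophages and monocytes, and miR-214-/- Ang II replicate 2 had 4747, 3041 and 1757 CPM. The other Ang II libraries had 672 to 2873 CPM for red-cell precursors, and sham libraries 363 to 737 CPM. No marker was at 0 in all libraries, and the NK cell gene Klra8 was the only one at 0 in any. The part of these other cells in the results below was not tested, and in such bulk libraries fewer T cells and less RNA per T cell cannot be told apart.

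The promoters were searched for both elements. RefSeq (GRCm38.p6) gave windows from 250 bases before to 50 bases after the transcription start for 30 of the 40 genes. The core of the ISRE, taken as GAAA, any 2 bases and GAAA on either strand (so that cores can overlap), was in the windows of 17 of these 30 genes (56.7%), against 3.99% of the 27025 genes with a window. The GAS, taken as TTC, any 3 bases and GAA, was in 9 of 30 (30%) against 9.55% of all. A motif match is a description of letters and shows no binding. The stretches below are the clearest examples, all upstream of the start and outside exons, written 5′ to 3′ on the strand of the gene. Capitals mark the ISRE core, which on the opposite strand reads TTTC, any 2 bases and TTTC.
Isg15: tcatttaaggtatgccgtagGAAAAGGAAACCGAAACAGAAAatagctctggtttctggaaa
Ifit1: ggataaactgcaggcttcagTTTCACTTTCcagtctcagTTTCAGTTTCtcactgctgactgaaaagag
Ifit3: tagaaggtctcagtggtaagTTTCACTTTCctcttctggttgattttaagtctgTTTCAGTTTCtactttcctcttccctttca
Ifit3b: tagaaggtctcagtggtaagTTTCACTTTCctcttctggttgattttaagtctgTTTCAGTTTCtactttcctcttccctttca
Rsad2: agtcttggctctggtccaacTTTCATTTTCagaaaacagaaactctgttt
Igtp: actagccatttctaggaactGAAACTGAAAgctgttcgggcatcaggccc

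These lie at chr4:156200855-156200916 (minus strand) for Isg15, chr19:34640765-34640833 (plus) for Ifit1, chr19:34583353-34583436 (plus) for Ifit3, chr19:34607749-34607832 (plus) for Ifit3b, chr12:26456543-26456592 (minus) for Rsad2 and chr11:58199502-58199551 (plus) for Igtp. Isg15, the ubiquitin-like modifier, had 3 overlapping cores that begin 78, 72 and 66 bases before its start. Ifit1, Ifit3 and Ifit3b each had a pair of cores. The 84 bases shown for Ifit3 and Ifit3b, neighbours on chromosome 19, were identical at 84 of 84 positions.

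For the genes that passed the test below and had no ISRE core in the window, the GAS is shown in capitals where the window held one.
Irf1: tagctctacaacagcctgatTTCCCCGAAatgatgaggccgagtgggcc
Isg20: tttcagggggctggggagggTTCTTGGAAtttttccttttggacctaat
Ifit2: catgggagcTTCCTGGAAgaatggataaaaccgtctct

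They lie at chr11:53769904-53769952 for Irf1, chr7:78913331-78913379 for Isg20 and chr19:34550444-34550481 for Ifit2, all on the plus strand. Of the other genes that passed, Gbp2 had 1 ISRE core (TTTCACTTTC) that begins 59 bases before its start, and Ddx58 had 1 (TTTCGATTTC) that begins just after it. Neither motif was in the windows of Psmb9 and Tap1, which start beside each other on chromosome 17 in opposite directions, and Usp18 had no window. Igtp also had a GAS, 45 bases before the start.

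**Figure D1:**
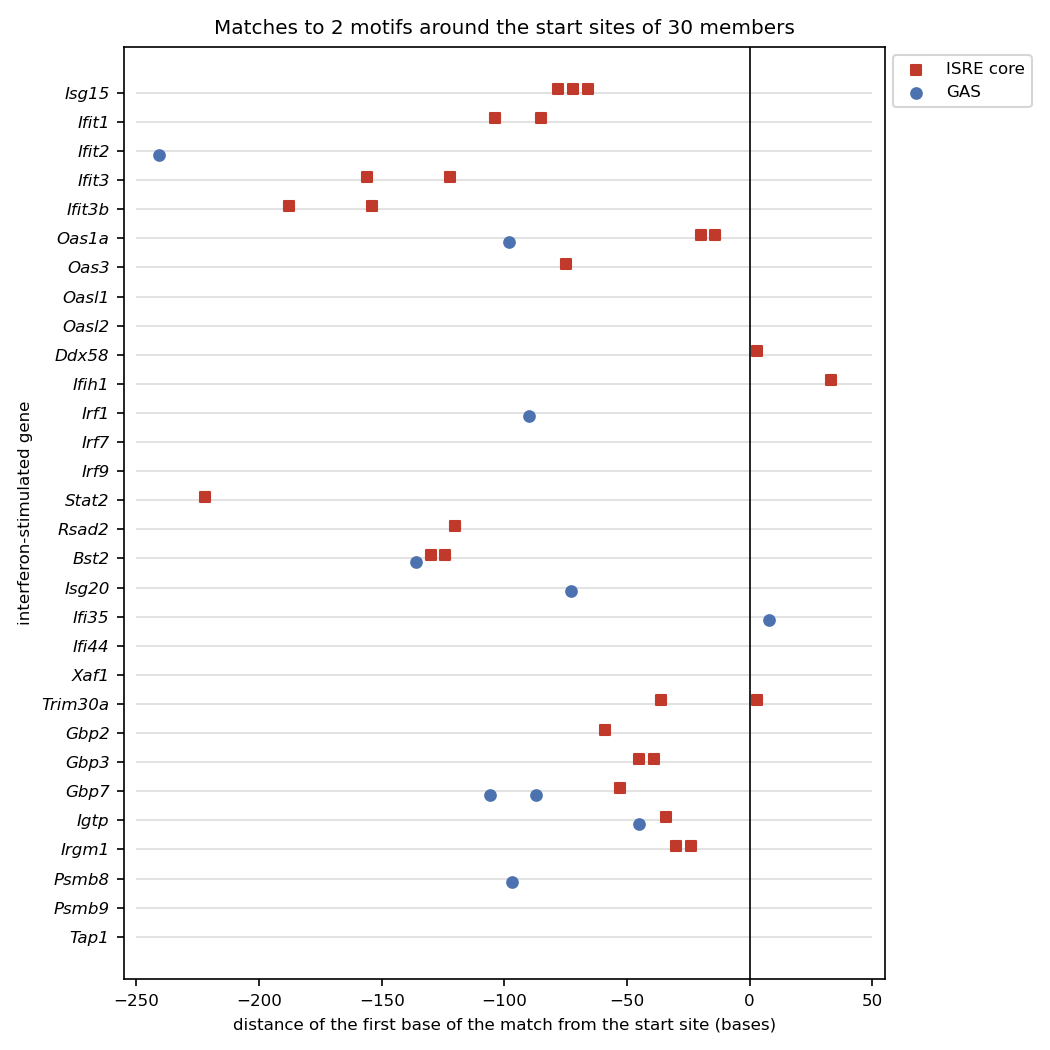
Matches to the ISRE core (squares) and the GAS (circles) in the promoter windows of 30 interferon-stimulated genes. The x axis is the distance in bases of the first base of the match from the transcription start, and each row is a gene. ISRE cores lie in 17 rows and GAS matches in 9, between positions -241 (Ifit2) and 33 (Ifih1).

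In unstimulated WT T cells the genes spanned a wide range of expression. Levels per kilobase used the length of all annotated exons of a gene together, over all its transcripts. For Irf1 this was 3976 bases, against 2137 for its longest transcript, and for Psmb8 3381 against 1907. For Igtp both were 2022 bases, so the ranks below depend on the length used. By it, the highest mean level in WT sham was that of Igtp, an immunity-related GTPase that acts on pathogen vacuoles, at 121.6 CPM per kilobase. Irf1, a transcription factor induced by interferon gamma, followed at 91.5, then Psmb8, a catalytic subunit of the immunoproteasome, at 90.2, and Tap1, the peptide transporter that loads MHC class I, at 83.5 CPM per kilobase. Ifi27 and Bst2, listed here with the antiviral effectors, were next at 61.7 and 54.9 CPM per kilobase. The 6 lowest by the same scale were Mx2, Rsad2, Oasl2, Oasl1, Ifi44 and Ifit3b. Mx2, a dynamin-like antiviral GTPase, was last at 1.52 CPM per kilobase, and Rsad2, the antiviral enzyme viperin, was next to last at 1.88. Isg15 ranked 25 of 40 at 11.3 CPM per kilobase, and Usp18, the protease that removes ISG15 from proteins and also damps the type I receptor, ranked 23 at 12.4.

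Read sharing limits a few genes. Of the 150-base windows along its longest transcript, Oas1a shared 32.4% with Oas1g, Ifit3 shared 18.5% with Ifit3b and Ifit3b shared 16% with Ifit3. The other members shared at most 8.93% with any gene.

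Outside WT sham, most of the 40 genes were high or low together in single mice. In WT sham the libraries were close, and the mean over the 40 genes of log2(CPM + 1), taken relative to the WT sham mean, had an SD of 0.033. There no library was the highest for more than 15 genes. In WT Ang II it was -0.21 ± 0.25 (SD, n = 3). For the miR-214-/- groups it was -0.07 ± 0.23 with sham and 0.03 ± 0.21 with Ang II. The SDs outside WT sham come from single mice that were high or low for most of the list. Among WT Ang II libraries replicate 1 was the highest for 32 of 40 genes and replicate 3 the lowest for 31. In miR-214-/- sham replicate 2 was the lowest for 36 genes, and in miR-214-/- Ang II replicate 2 was the highest for 30. The 2 Ang II libraries that were high for the list are the ones with the highest red-cell precursor and neutrophil sums given above. They also had the highest T cell marker sums of their groups (4021 and 5155 CPM). In miR-214-/- sham, replicate 1 was the highest for 30 genes, with the highest T cell sum (5198 CPM) and the lowest red-cell precursor sum (363 CPM). Replicate 2 of that group did not have its lowest T cell sum. These links were not tested, and the counts of highest and lowest genes were not made over all genes.

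**Figure D2:**
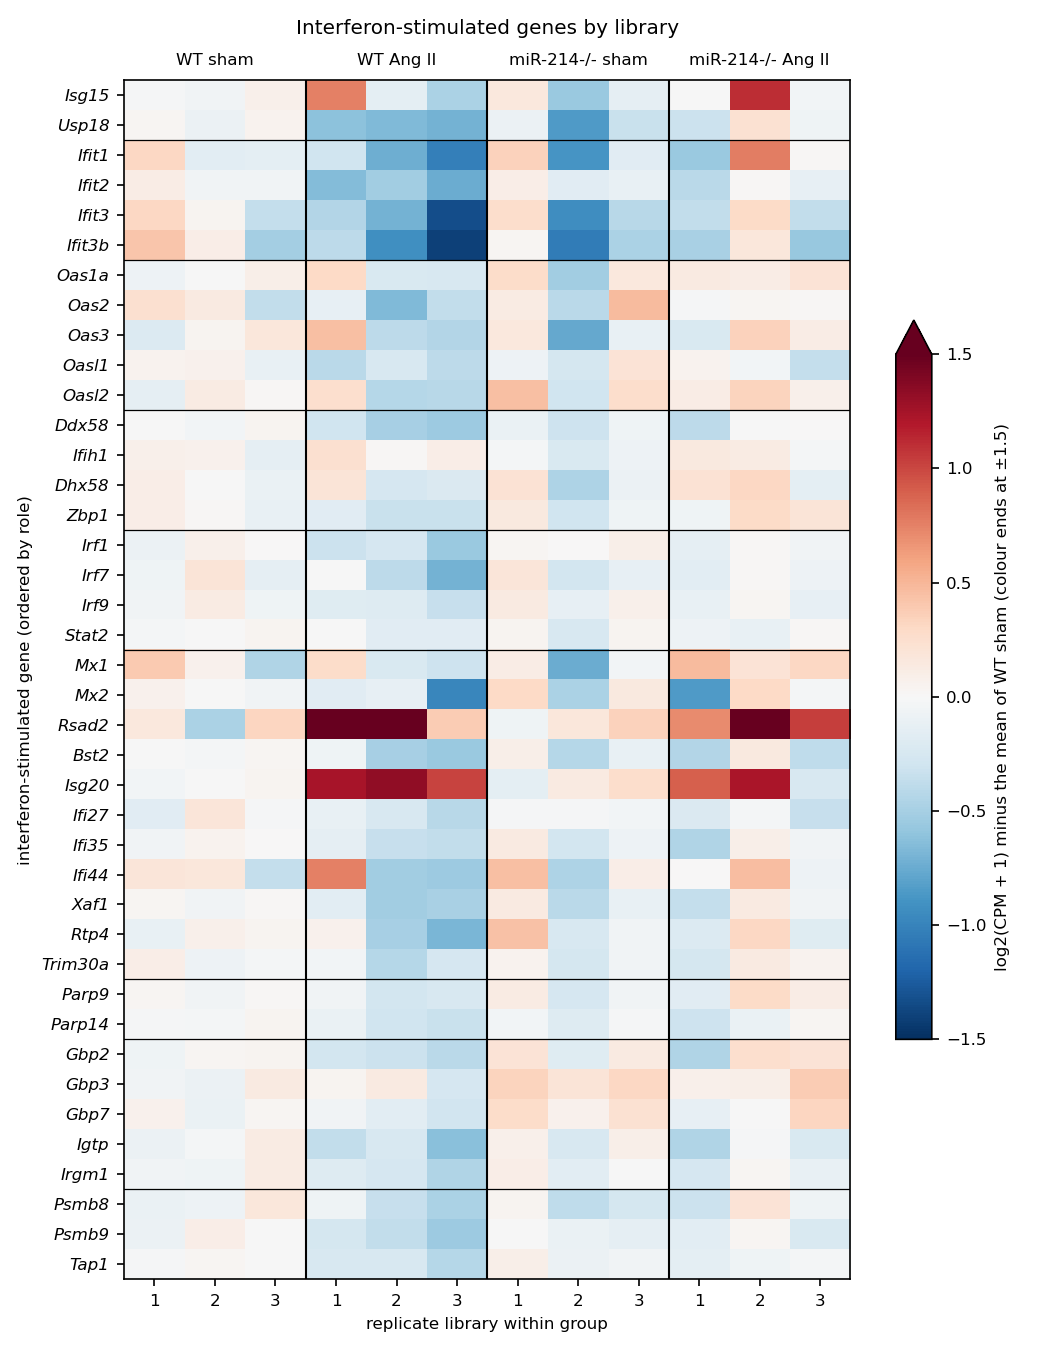
Log2(CPM + 1) of the 40 genes in each of the 12 libraries, minus the mean of the 3 WT sham libraries. Rows are genes ordered by role and columns are libraries by group. WT Ang II columns are mostly blue, least so replicate 1 with 12 of 40 genes above the WT sham mean, and miR-214-/- sham replicate 2 is mostly blue. Rsad2 is red in every Ang II column, and Isg20 in all of them but miR-214-/- Ang II replicate 3.

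Ang II in WT mice went with lower levels of most of these genes. Relative to WT sham, 35 of 40 had a negative log2 fold change, and the median was -0.27, against -0.02 for all 16012 genes tested, of which 51.6% were negative. With edgeR's quasi-likelihood test, adjusted by Benjamini-Hochberg over all genes, 9 of 40 passed at 0.05, or 22.5%, beside 18.8% of all genes. That share is near the background. At an unadjusted p under 0.05 stood 21 of 40, beside 35.6% of all genes. By direction, 8 of 40 fell, beside 7.06% of all genes, and 1 rose, beside 11.7% of all genes. The genes that fell were Usp18, Ifit2, Ddx58, Irf1, Gbp2, Igtp, Psmb9 and Tap1, and the one that rose was Isg20, an RNA exonuclease. All 8 falls were smaller than 2-fold. In 20 of the 40 genes every WT Ang II library was below every WT sham library, beside 22% of all genes tested, and in 2 genes every one was above, beside 19.1% of all.

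These calls rest on few mice. Without WT Ang II replicate 1, the library high for most of the list, 20 of 40 genes passed, 19 of them lower. Leaving out any one of the other WT libraries left 3 to 5. The share of all genes called was not counted for these fits, so the changes from 9 are no result about the list. Isg20, Usp18 and Ifit2 passed with TMM scaling whichever library was left out. Scaling matters as well, since the T cell markers themselves were lower in WT Ang II. When libraries were scaled to the 12 T cell markers in place of TMM, an alternative chosen after the data were seen, the median of all genes shifted to 0.51 and that of the 40 genes to 0.26. On that scale 9 of 40 passed, all higher, beside 49.4% of all genes called higher. They were Oas1a, Ifih1, Stat2, Rsad2, Isg20, Parp9, Parp14, Gbp3 and Gbp7. The point estimates of Gbp2, Ddx58, Irf1, Igtp, Psmb9 and Tap1 turned positive on that scale without passing. Usp18 and Ifit2 lost their calls on it, with log2 fold changes of -0.14 (adjusted p = 0.472) and -0.10 (adjusted p = 0.569), while Isg20 rose (log2 fold change 1.79, adjusted p = 0.000181). Rescaling shifts all genes nearly alike, so the gap to the median of all genes could hardly change. The list was 0.25 lower than that median with TMM and 0.26 lower with the T cell scale. Put the other way, under TMM 33 of the 40 genes lay above the highest of the 12 T cell markers, which had log2 fold changes of -0.62 to -0.41, and only Usp18, Ifit1, Ifit3 and Ifit3b lay below the lowest of them.

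**Figure D3:**
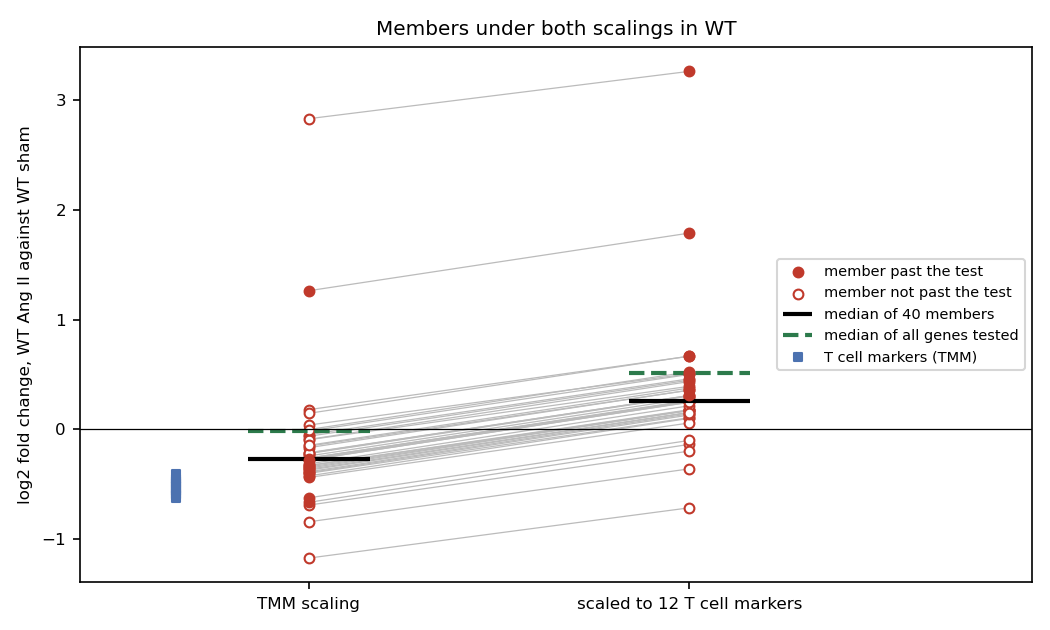
Log2 fold change of WT Ang II against WT sham for the 40 genes with TMM scaling and with libraries scaled to 12 T cell markers (circles joined by lines, filled past an adjusted p of 0.05), beside the T cell markers with TMM (squares). The median of the 40 genes (solid bar) moves from -0.27 to 0.26. It lies under the median of all genes tested (dashed bar) in both, which rescaling could hardly change, since it shifts all genes nearly alike.

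Usp18 had CPM of 35.5, 32.5 and 36.2 in WT sham and 22.3, 21.6 and 20.8 in WT Ang II, with no overlap. It was 32.6, 18.8 and 27.4 in miR-214-/- sham and 27.6, 40.7 and 33.2 in miR-214-/- Ang II. In WT it fell by 36.9% (log2 fold change -0.66 ± 0.09 SE, adjusted p = 0.00569), and in miR-214-/-, where groups overlapped, the log2 fold change was 0.37 ± 0.22 (adjusted p = 0.534). Usp18 lies at chr6:121245906-121270917. Its partner Isg15 was 5.89 to 15.1 CPM in WT Ang II, both above and below the 8.21 to 9.06 CPM of WT sham, with the high value in replicate 1.

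The IFIT proteins bind viral RNA that lacks the host cap and block its translation, and their genes sit side by side on chromosome 19. Ifit2 (chr19:34550694-34576419) was 98.8, 87.7 and 87.8 CPM in WT sham and 58.0, 63.3 and 54.2 CPM in WT Ang II. In miR-214-/- it was 97.5, 81.2 and 84.6 CPM with sham and 68.7, 92.7 and 83.4 CPM with Ang II. The WT groups did not overlap and the miR-214-/- groups did. Ifit2 fell by 35.1% in WT (log2 fold change -0.62 ± 0.08, adjusted p = 0.00507) and its log2 fold change in miR-214-/- was -0.10 ± 0.12 (adjusted p = 0.759). Ifit1, Ifit3 and Ifit3b had larger but more variable differences in WT, with log2 fold changes of -0.69, -0.84 and -1.17 and adjusted p of 0.0807, 0.0770 and 0.112, so they did not pass. In miR-214-/- the same 3 had positive values of 0.17 to 0.35, none past the test.

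Active oligoadenylate synthetases make the second messenger that activates RNase L, and the family also has OAS-like members. None of its 5 genes here passed in either genotype with TMM scaling. On the T cell scale Oas1a passed as higher in WT (log2 fold change 0.50, adjusted p = 0.0458). Oas3 had the highest CPM of the family but a lower level than Oas1a per kilobase of all annotated exons, a rank that depends on that length. Oas3 was 36.2, 43.2 and 47.2 CPM in WT sham and 57.9, 31.8 and 30.8 CPM in WT Ang II. It was 46.7, 24.2 and 38.9 CPM in miR-214-/- sham and 35.8, 53.5 and 45.5 CPM in miR-214-/- Ang II. Its values overlapped in both genotypes, and the high libraries were WT Ang II replicate 1 and miR-214-/- Ang II replicate 2.

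Among the sensors of foreign nucleic acid, Ddx58, which encodes the RNA helicase RIG-I (chr4:40203773-40239828), was 154.7, 150.4 and 160.1 CPM in WT sham and 126.1, 109.3 and 106.2 CPM in WT Ang II. With miR-214 deleted it was 144.5, 124.7 and 147.9 CPM in sham and 117.5, 154.8 and 155.5 CPM in Ang II. It fell by 25.4% in WT (log2 fold change -0.42 ± 0.08, adjusted p = 0.0159), without overlap, and by the same test the miR-214-/- value was 0.04 ± 0.13 (adjusted p = 0.916). With TMM the related helicase Ifih1 (MDA5) had a log2 fold change of 0.15 ± 0.11 in WT. It did not pass, so the family had no common sign with that scaling. On the T cell scale both helicases had positive values in WT, and Ifih1 passed (0.67, adjusted p = 0.0104).

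Of the transcription factors, Irf1 (chr11:53770014-53778374) was 341.5, 384.4 and 365.4 CPM in WT sham and 290.2, 306.1 and 246.3 CPM in WT Ang II. The miR-214-/- libraries had 371.2, 364.5 and 385.5 CPM in sham and 330.1, 368.3 and 350.4 CPM in Ang II. Irf1 fell by 21.7% in WT (log2 fold change -0.35 ± 0.09, adjusted p = 0.0387), and the call was lost whichever WT library was left out. Irf7, Irf9 and Stat2, which carry the type I signal, had values of -0.33, -0.22 and -0.09 in WT and did not pass with TMM. On the T cell scale Stat2 passed as higher in WT (0.44, adjusted p = 0.0124).

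The GTPases restrict bacteria and parasites in vacuoles and are classical targets of interferon gamma. Gbp2 (chr3:142620602-142638008) was 125.6, 133.9 and 135.5 CPM in WT sham and 108.9, 104.9 and 99.0 CPM in WT Ang II. It was 152.3, 116.2 and 144.4 CPM in miR-214-/- sham and 96.3, 157.2 and 151.5 CPM in miR-214-/- Ang II. The WT values were tight and separate, and those of miR-214-/- were spread widely. Gbp2 fell by 19.6% in WT (log2 fold change -0.31 ± 0.06, adjusted p = 0.0181), against -0.02 ± 0.19 in miR-214-/- (adjusted p = 0.971). Igtp (chr11:58199556-58207591) was 231.7, 239.7 and 266.4 CPM in WT sham and 190.1, 207.6 and 159.0 CPM in WT Ang II. In miR-214-/- it was 259.7, 207.9 and 261.1 CPM with sham and 178.9, 241.6 and 210.1 CPM with Ang II. It was lower on average with Ang II in both genotypes, and it fell in WT by 23.4% (log2 fold change -0.39 ± 0.10, adjusted p = 0.0402).

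Of the 3 genes of antigen processing, Tap1 and Psmb9 fell with TMM scaling, and all 3 had positive values that did not pass on the T cell scale (0.25 for Psmb8, 0.15 for Psmb9 and 0.25 for Tap1). Tap1 (chr17:34187553-34197225) was 451.7, 466.4 and 453.8 CPM in WT sham and 386.6, 388.3 and 339.8 CPM in WT Ang II, and fell by 17.5% (log2 fold change -0.28 ± 0.07, adjusted p = 0.0387). Its miR-214-/- values were 486.9, 431.8 and 439.8 CPM in sham and 412.8, 435.5 and 448.7 CPM in Ang II, which overlapped. Psmb9 (chr17:34181987-34187764), a subunit of the immunoproteasome that cuts peptides for MHC class I, was 155.8, 177.9 and 165.5 CPM in WT sham and 138.3, 128.4 and 113.5 CPM in WT Ang II. It was 165.3, 154.4 and 150.9 CPM in miR-214-/- sham and 149.1, 169.6 and 141.9 CPM in miR-214-/- Ang II. Psmb9 fell by 22.7% in WT (log2 fold change -0.37 ± 0.09, adjusted p = 0.0314), and in miR-214-/- the value was -0.03 ± 0.09 (adjusted p = 0.928). Psmb8 had a log2 fold change of -0.27 in WT and did not pass.

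The antiviral effectors Isg20 and Rsad2 went the other way. Isg20 (chr7:78913424-78920396) was 18.8, 19.2 and 19.9 CPM in WT sham and 46.9, 49.99 and 40.03 CPM in WT Ang II. It was 17.4, 21.4 and 23.3 CPM in miR-214-/- sham and 36.6, 46.6 and 16.2 CPM in miR-214-/- Ang II. All WT Ang II libraries were above all WT sham libraries, while in miR-214-/- Ang II 2 of 3 were above and replicate 3 was below. Isg20 rose 2.40-fold in WT (log2 fold change 1.26 ± 0.10, adjusted p = 0.00114), and the value in miR-214-/- was 0.69 ± 0.36 (adjusted p = 0.472). It was the only member that also passed the 2-fold threshold, beside 7.3% of all genes. Rsad2 (chr12:26442746-26456452) was 8.94, 5.40 and 10.1 CPM in WT sham and 129.7, 30.1 and 10.6 CPM in WT Ang II. In miR-214-/- it was 7.52, 9.01 and 10.3 CPM in sham and 13.6, 70.3 and 17.3 CPM in Ang II. Every Ang II library exceeded every sham library of its genotype, by little in some mice and by a large factor in others. The log2 fold changes were 2.83 ± 0.86 in WT (adjusted p = 0.0604) and 1.92 ± 0.61 in miR-214-/- (adjusted p = 0.326). The libraries with the highest Rsad2, WT Ang II replicate 1 and miR-214-/- Ang II replicate 2, are those with the highest sums for red-cell precursors, neutrophils and macrophages, and the part of those cells in Rsad2 was not tested.

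Other antiviral effectors and the PARP proteins, which assist interferon signalling, did not pass with TMM scaling. On the T cell scale Parp9 and Parp14 passed as higher in WT (log2 fold changes 0.36 and 0.31, adjusted p = 0.0335 and 0.0332). Trim30a, a ubiquitin ligase and the effector with the highest CPM (not corrected for length), was 186.3, 164.7 and 169.7 CPM in WT sham and 167.9, 128.9 and 145.5 CPM in WT Ang II. Its miR-214-/- values were 179.7, 143.7 and 167.7 CPM in sham and 144.1, 190.2 and 179.4 CPM in Ang II, so all 4 groups overlapped. Parp14 was 221.5, 219.6 and 231.5 CPM in WT sham and 209.4, 182.7 and 178.2 CPM in WT Ang II, a separation by little (log2 fold change -0.22 ± 0.08, adjusted p = 0.0982). In miR-214-/- it was 217.9, 195.8 and 222.2 CPM in sham and 180.7, 208.6 and 228.3 CPM in Ang II.

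**Figure D4:**
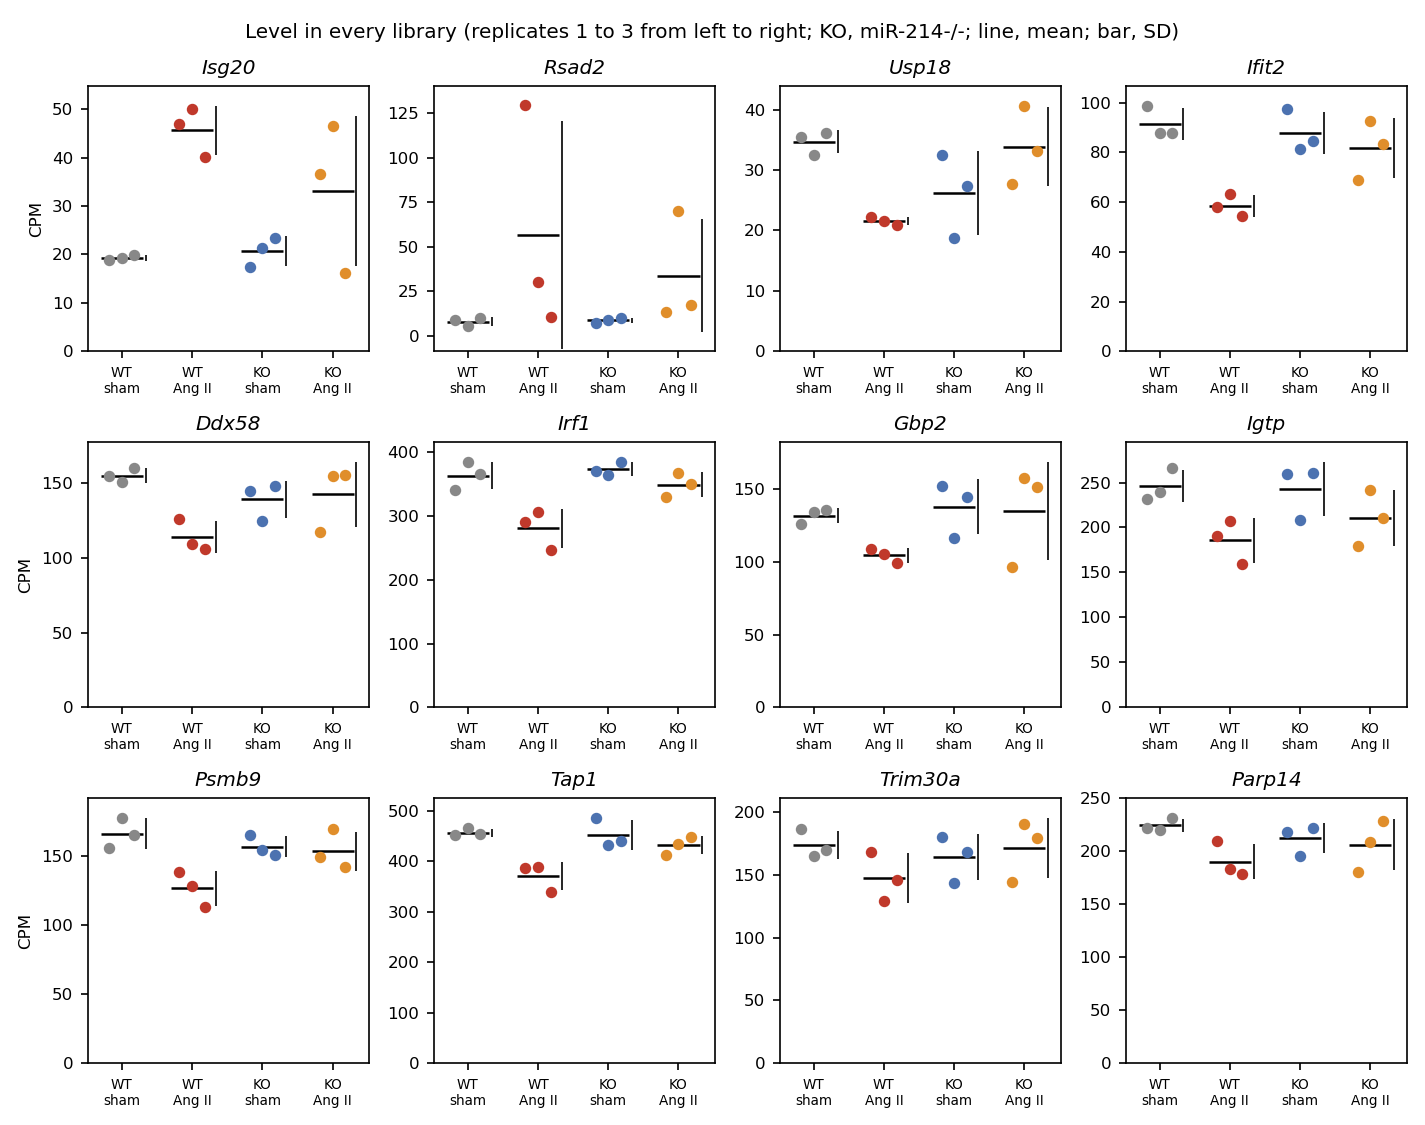
CPM of 12 genes in every library, with the mean (line) and SD (bar) of each group of 3 mice, for the 10 that passed the test in any comparison and for Trim30a and Parp14. The y axis is linear and begins at 0 except for Rsad2, whose SD bar reaches below 0. For Usp18 and Ifit2 the WT Ang II points lie under all points of the WT sham group, and Rsad2 is spread between 10.6 and 129.7 CPM in WT Ang II.

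In miR-214-/- mice the list showed no common direction with Ang II. Relative to miR-214-/- sham, 20 of the 40 genes were higher and 20 lower, where 54.5% of all genes were higher, with a median of 0.002 against 0.03 for all 15937 genes tested. None passed the edgeR test, and 0% of all genes did. At an unadjusted p under 0.05 stood 1 member, Rsad2, beside 12.2% of all genes, and DESeq2 also called none of the 40 (2.14% of all). In 3 genes, Ifih1, Mx1 and Rsad2, every Ang II library was above every sham library, beside 8.86% of all genes. The 95% intervals of the members were wide, from -0.16 to 0.90 for Usp18 and from -0.39 to 0.19 for Ifit2. The absence of calls in this genotype covers all genes and is not particular to the interferon-stimulated ones.

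**Figure D5:**
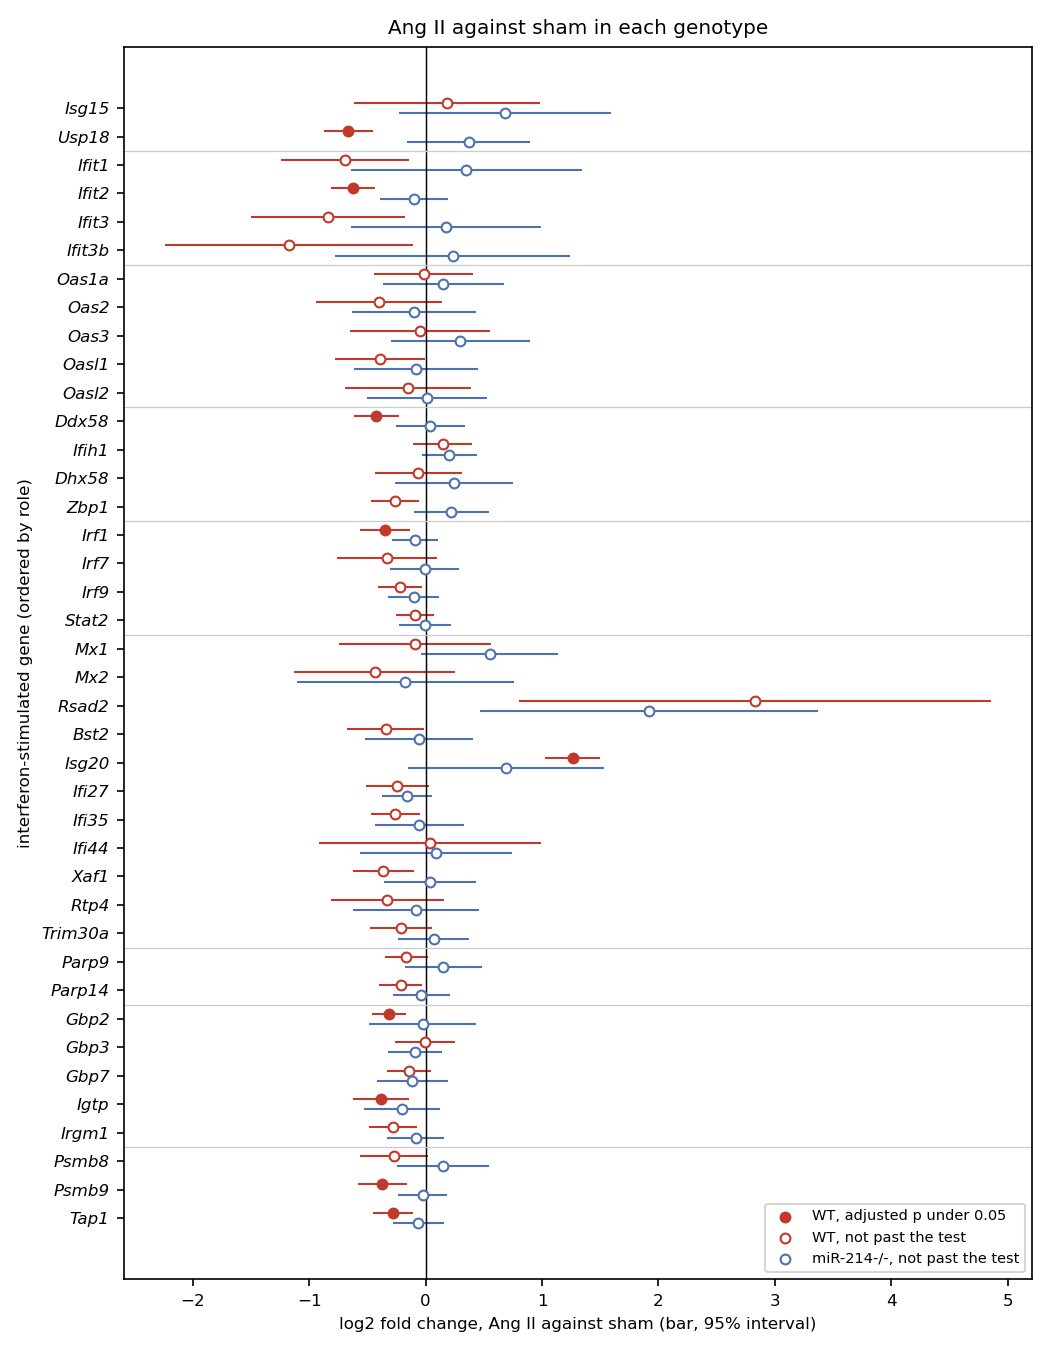
Log2 fold change of Ang II against sham for the 40 genes in WT (red) and in miR-214-/- (blue), with 95% intervals and filled points past an adjusted p of 0.05. The 9 filled points are all in WT, 8 below 0 and Isg20 above, and the blue points lie around 0 except Rsad2.

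Whether Ang II differed in effect between the genotypes was tested by the interaction. None of 40 members passed (0.00596% of all 16770 genes did), and the smallest adjusted p was 0.213, for Usp18. DESeq2 called 1 member, Usp18 (adjusted p = 0.0139), beside 3.22% of all genes. The interaction was positive, that is higher in miR-214-/-, for 37 of 40 genes and 51.5% of all genes, with a median of 0.30 against 0.01 for all. The exceptions were Isg20, Rsad2 and Gbp3. Usp18 had an interaction of 1.05 ± 0.26 on the log2 scale (unadjusted p = 0.00181 in edgeR), Ifit2 of 0.54 ± 0.16, Ddx58 of 0.48 ± 0.16, Zbp1, a sensor of Z-form nucleic acid, of 0.50 ± 0.17 and Psmb9 of 0.36 ± 0.13. These were the 5 members under an unadjusted p of 0.05, beside 14.8% of all genes. On the T cell scale Usp18 had an interaction of 0.53, and Ifit2, Ddx58, Zbp1 and Psmb9 had 0.02, -0.04, -0.01 and -0.14, none past the test. The median of the 40 genes was then -0.22 and that of all genes was -0.50. Again 37 genes were above the median of all, which rescaling could hardly change, since it shifts all genes nearly alike. The T cell markers had a median interaction of 0.53 with TMM.

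Under sham, the median log2 difference of miR-214-/- from WT was -0.06 for the list and -0.01 for all 15913 genes tested. Lower in miR-214-/- were 27 of 40 genes and 52.4% of all. None of 40 passed, and 0.0251% of all genes did. Only Gbp3 and Gbp7, GTPases from the cluster on chromosome 3, had every miR-214-/- sham library above every WT sham library, beside 5.39% of all genes, and Ddx58 alone had every one below, beside 4.79% of all. Gbp3 was 62.0, 60.2 and 70.6 CPM in WT sham and 81.4, 73.7 and 79.5 CPM in miR-214-/- sham (log2 difference 0.28, adjusted p = 0.701). In the same cluster Gbp2b, from the list of other interferon gamma targets, passed. It was 46.8, 53.8 and 51.5 CPM in WT sham and 107.2, 90.6 and 106.4 CPM in miR-214-/- sham, a log2 difference of 0.996 (adjusted p = 0.0208). With Ang II its WT libraries held 38.7 to 76.3 CPM, and its miR-214-/- libraries 53.0 to 105.7 CPM.

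Under Ang II the miR-214-/- mice had the higher level for 37 of the 40 genes, where 50.2% of all genes were higher. The median log2 difference of miR-214-/- from WT was 0.26. All 12 T cell markers were higher in miR-214-/- too, with a median of 0.35, and 29 of the 40 genes lay below that median. None passed, and 0% of the 16215 genes tested did. In 9 genes the groups did not overlap, all higher in miR-214-/-, beside 8.01% of all genes. Those were Usp18, Ifit2, Ifit3, Oas2, Zbp1, Irf1, Irf9, Psmb9 and Tap1. At an unadjusted p under 0.05 stood 8 members, beside 8.56% of all genes, and with T cell scaling the median turned to -0.075, while that of all genes was -0.33. Pooled over both treatments, the genotype difference had a median of 0.10, with 36 genes higher (48.4% of all) and none past the test (0% of all genes). In that pooled comparison 11 of 12 T cell markers were higher, with a median of 0.09. This comparison, like the 3 above, shares its libraries with the others.

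Pooled over both genotypes, Ang II changed 5 of 40 genes, or 12.5%, beside 15.9% of all genes. Isg20 rose 1.95-fold (adjusted p = 0.0156) and Rsad2 5.12-fold (adjusted p = 0.0228). Ifit2 fell by 22.8% (adjusted p = 0.0399), Igtp by 19.2% (adjusted p = 0.0495) and Irf1 by 15.0% (adjusted p = 0.0493). By direction, 2 rose, beside 8.16% of all genes, and 3 fell, beside 7.72%. The median of the list was -0.17, against 0.0003 for all genes. On the T cell scale Ifit2 (-0.09, adjusted p = 0.457) and Igtp (-0.02, adjusted p = 0.879) lost their calls and Irf1 turned to 0.055. Those that passed on it were Isg20, Rsad2, Ifih1 and Parp9, 4 members, all higher, beside 16.3% of all genes called higher. With TMM and without miR-214-/- Ang II replicate 2, 8 members passed, 7 of them lower, and leaving out any one of the WT sham libraries left 1, Isg20. For these fits the share of all genes called was not counted, so the changes from 5 are no result about the list.

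The pathway around the list was read from lists of known genes. Of 21 interferon ligands only Ifng, the interferon of T cells, had enough counts to be tested. It was 18.2, 13.5 and 13.2 CPM in WT sham and 10.9, 11.6 and 8.30 CPM in WT Ang II, without overlap (log2 fold change -0.52 ± 0.19, adjusted p = 0.0999). In miR-214-/- it was 11.4, 13.9 and 16.1 CPM with sham and 13.7, 6.95 and 10.9 CPM with Ang II. The receptor genes Ifnar1, Ifnar2, Ifngr1 and Ifngr2 did not pass in either genotype, with WT values between -0.17 and 0.13. Ifngr1 had a log2 fold change of -0.55 in miR-214-/- (adjusted p = 0.311), and over both genotypes it fell (log2 fold change -0.37, adjusted p = 0.0467). Ifnlr1, the receptor chain for lambda interferons, rose in WT from a very low level (log2 fold change 2.91 ± 0.47, adjusted p = 0.0093). It was 0.52, 0.32 and 0.41 CPM in WT sham and 5.06, 2.18 and 2.03 CPM in WT Ang II, with the highest value in replicate 1. Jak1, the kinase shared by all 3 receptor types, was 1111, 1206 and 1255 CPM in WT sham and 906.6, 909.5 and 831.4 CPM in WT Ang II, and fell (log2 fold change -0.41 ± 0.08, adjusted p = 0.0185). Tyk2 had a value of -0.05 and did not pass. Of 11 kinases and factors tested in WT, 4 fell and 0 rose, and of 13 negative regulators of the pathway 1 fell and 0 rose. Beside these, 7.06% of all genes fell and 11.7% rose. The T cell markers had log2 fold changes of -0.62 to -0.41 in the same comparison.

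Other interferon-stimulated genes moved in both directions in WT, where 7.06% of all genes fell and 11.7% rose with TMM scaling. These lists were not counted on the T cell scale. Of 48 other type I targets tested, 11 fell and 4 rose, with a median of -0.18, and of 31 other interferon gamma targets 4 fell and 1 rose. The one with the smallest p was Cmpk2, the nucleotide kinase that lies beside Rsad2 on chromosome 12, which rose (log2 fold change 0.90 ± 0.12, adjusted p = 0.00519). Slfn1 and Shisa5 fell, by 0.51 and 0.57 on the log2 scale. In the Ifi200 family of DNA-binding PYHIN proteins 7 of 13 fell and 1 rose. Their median was -0.51, close to the -0.53 of the T cell markers in the same comparison. The largest evidence there was for Ifi214, with a log2 fold change of -0.66 ± 0.10 (adjusted p = 0.00768), and the one that rose, named after its value was seen, was Ifi205. Ikbke, a kinase upstream of interferon induction, fell by 0.63 on the log2 scale, one of 3 of 15 sensors and adaptors that fell, beside 1 that rose. In miR-214-/- none of these lists had a gene past the test.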

How the data were processed

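The authors trimmed reads with Trimmomatic, mapped them to GRCm38 with STAR and counted unique exonic reads per gene with featureCounts (Subread 1.5.2, per the labels). The deposited values are these raw counts, without normalization. The strand setting and the annotation release are not given in the sources used here.

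Gene identifiers were matched to GENCODE M21 (GRCm38), 49056 of 49315. Counts were tested in R 4.3.3 with edgeR 4.0.16 (filterByExpr on the groups compared, TMM, quasi-likelihood test, Benjamini-Hochberg over all genes tested). The 7 comparisons were 4 between pairs of groups, the interaction, and each main effect adjusted for the other over 12 libraries. A gene passed at an adjusted p under 0.05, and a second count also asked for a log2 fold change over 1. CPM used TMM-scaled library sizes, and errors of fold changes are SE with 95% intervals from the fit. Alternatives were DESeq2 1.42.0, other scalings and filters, a replicate block, 1 fit over all groups and leaving out each library. The scripts were tested on simulated data. The 12 pairs of replicate libraries were checked, and their counts differed by at least 10.7 times the sampling variance. The 40 genes and the lists were chosen with earlier results of these data known. Genes named with values in every library were those past the test in any comparison and the most abundant of each role, and from the other lists fixed pathway genes and, per comparison, at most 6 with the smallest p. The result of 1 gene of the pathway lists is not reported here.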

Additional observations from a re-analysis of the deposited data

How the results depend on the processing

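In WT Ang II against sham, 9 members passed; DESeq2 called 14, adding Ifit1, Ifit3, Ifit3b, Rsad2 and Xaf1 (22.9% of all genes), and the added fold threshold left 1. For the interaction DESeq2 called 1, Usp18 (3.22% of all genes), and edgeR 0. For Ang II over both genotypes, where 5 passed, RLE scaling and no filter each gave 3, and the fold threshold 1. Scaling to the T cell markers, chosen after seeing the data, moved the medians to 0.26 in WT Ang II against sham, -0.075 in miR-214-/- Ang II against WT Ang II, -0.22 for the interaction and 0.12 for Ang II over both genotypes. It reversed Gbp2 (0.21), Ddx58 (0.10), Irf1 (0.17), Igtp (0.14), Psmb9 (0.15) and Tap1 (0.25) in WT, and Irf1 over both genotypes (0.055), since all genes shifted by construction. Leaving out 1 library gave 3 to 20 members in WT Ang II against sham, 1 to 8 for Ang II over both genotypes, 0 to 3 for the interaction (3 without miR-214-/- Ang II replicate 1) and 0 to 0 elsewhere. The share of all genes called was not counted for the fits without 1 library, with RLE scaling, without a filter or with the replicate block. The medians then ranged from -0.36 to -0.19 in WT, from -0.10 to 0.14 in miR-214-/-, from -0.15 to 0.04 between shams, from 0.17 to 0.41 between Ang II groups, from 0.16 to 0.45 for the interaction, from 0.02 to 0.18 for genotype and from -0.22 to -0.11 for Ang II. The replicate block gave 9 in WT and 1 for Ang II over both genotypes. The labels give the replicate numbers without stating that they pair mice. Of 18 same-numbered pairs of libraries, 7 correlated over 0.1 in their deviations, between -0.64 and 0.41, which cannot exclude a shared batch. Of the single genes under these settings, 144 values stayed past the test, 98 kept their direction without passing and 7 reversed. A looser ISRE core, without the last A, was in 60% of the 30 genes with a window (9.76% of all genes), and the core as used in 56.7% (3.99% of all genes). With 3 mice a group, differences near or below the SDs given could not be told from the spread between mice, and larger ones can be missed too. Low counts limit Ifit3b, which had 24 to 140 counts.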
